A study of Homo sapiens with 4 samples.

Results

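ATOH8-only peaks at gene ends are stretches of chromatin that were recovered with ATOH8, carried no TCF3 peak and lay close to a protein-coding gene in cells of the human prostate cancer line DU145, an established line. Members were chosen by position in the deposited peak lists: an ATOH8 peak on chromosomes 1 to 22 or X that shared no base with any TCF3 peak and whose midpoint was within 5 kb of either end of a protein-coding gene. This gave 2539 members of 4951 ATOH8 peaks (51.3%, Wilson 95% interval 49.9 to 52.7), and 67.0% (65.5 to 68.5) of the 3791 ATOH8 peaks at gene ends. The other 1252 gene-end ATOH8 peaks shared at least 1 base with a TCF3 peak and are called shared peaks here. A further 506 ATOH8-only peaks lay deep in genes and 481 lay between genes. The overlap with TCF3 and the nearness to genes are therefore properties of the choice, not results.

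The study profiled ATOH8 through a Flag tag and TCF3 through a Myc tag by chromatin immunoprecipitation and sequencing (ChIP-seq), with an input library for each factor. The groups were DU145 ATOH8 Flag ChIP, DU145 ATOH8 Flag input, DU145 TCF3 Myc ChIP and DU145 TCF3 Myc input, each with 1 library, and all came from the same cell line with no treatment named. How the tagged proteins were expressed, and whether cells came from 1 clone, was not stated in the labels. With 1 library per group there was no replicate error and no test: an interval on a share covers only the counting error of peaks, genes or promoters, and neither peaks nor genes are replicates. Peak lists hold no expression values, so the labelled cell type was not checked against marker genes.

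ATOH8 and TCF3 are basic helix-loop-helix (bHLH) proteins, a class that binds DNA as pairs at a short element called the E-box. TCF3 is an E protein, the broadly expressed kind of bHLH factor that serves as a partner for many tissue-restricted ones, while ATOH8 is a distant relative of the proneural factor ATOH1. The series title names SCD, the desaturase that makes monounsaturated fatty acids, and ferroptosis, a form of cell death driven by oxidised membrane lipids and iron.

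The promoter sequence of the highest-scoring members that held an annotated start shows what DNA lay there, and the 250 bases before the start are printed below, 5′ to 3′ on the strand of the gene, from RefSeq (GRCh38.p14). Capitals mark E-boxes, the letters CANNTG. Starts under the same members that had no E-box in these bases are not printed. DMPK encodes a kinase whose gene carries the repeat that causes myotonic dystrophy. ENTPD8 encodes an ectonucleotidase, PARP16 a mono-ADP-ribosyltransferase of the endoplasmic reticulum, ZC3H7B a zinc finger protein and RBL1 the retinoblastoma-like protein p107. SCD is shown as the gene the study names; its member began after the start and did not reach these bases.
DMPK, chr19:45782491-45782740, minus strand: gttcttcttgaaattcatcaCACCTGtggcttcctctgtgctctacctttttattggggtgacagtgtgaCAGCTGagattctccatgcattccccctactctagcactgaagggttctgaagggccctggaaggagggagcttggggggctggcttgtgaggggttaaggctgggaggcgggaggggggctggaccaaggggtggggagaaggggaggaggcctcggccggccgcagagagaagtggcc
ENTPD8, chr9:137441358-137441607, minus strand: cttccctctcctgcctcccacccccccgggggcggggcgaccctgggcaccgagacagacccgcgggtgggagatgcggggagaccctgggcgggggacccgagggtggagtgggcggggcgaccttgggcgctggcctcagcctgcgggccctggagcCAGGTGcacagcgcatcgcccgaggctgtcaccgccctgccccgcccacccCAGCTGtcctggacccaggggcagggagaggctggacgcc
PARP16, chr15:65286884-65287133, minus strand: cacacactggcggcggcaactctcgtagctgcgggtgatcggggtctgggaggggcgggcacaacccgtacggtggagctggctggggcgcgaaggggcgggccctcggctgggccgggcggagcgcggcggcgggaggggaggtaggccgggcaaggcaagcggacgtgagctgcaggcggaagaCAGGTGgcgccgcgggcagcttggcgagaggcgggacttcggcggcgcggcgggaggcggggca
ZC3H7B, chr22:41301275-41301524, plus strand: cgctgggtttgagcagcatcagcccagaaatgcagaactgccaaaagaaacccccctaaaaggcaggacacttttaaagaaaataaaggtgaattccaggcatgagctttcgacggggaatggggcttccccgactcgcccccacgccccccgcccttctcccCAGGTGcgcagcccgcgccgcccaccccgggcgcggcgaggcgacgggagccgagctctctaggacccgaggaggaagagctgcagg
RBL1, chr20:37095998-37096247, minus strand: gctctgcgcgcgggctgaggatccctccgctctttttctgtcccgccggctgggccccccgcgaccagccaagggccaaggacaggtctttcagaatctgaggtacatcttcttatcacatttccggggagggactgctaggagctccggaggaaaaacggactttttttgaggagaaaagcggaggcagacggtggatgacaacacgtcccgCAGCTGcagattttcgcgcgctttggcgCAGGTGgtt
SCD, chr10:100346983-100347232, plus strand: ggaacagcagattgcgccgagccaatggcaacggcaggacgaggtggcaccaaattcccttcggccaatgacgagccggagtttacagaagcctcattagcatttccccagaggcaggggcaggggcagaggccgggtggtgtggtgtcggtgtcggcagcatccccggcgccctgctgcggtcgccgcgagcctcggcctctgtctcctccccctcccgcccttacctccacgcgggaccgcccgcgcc

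The DMPK, ENTPD8 and RBL1 stretches each held 2 E-boxes, 1 of them the palindrome CAGCTG and the other CAGGTG or its reverse complement CACCTG. The PARP16 and ZC3H7B stretches each held 1, a CAGGTG. Of the DMPK stretch, 39 bases lay under the peak and neither E-box was among them. In PARP16, 224 of the 250 bases lay under the peak, and all 250 in ENTPD8, ZC3H7B and RBL1. The same stretches of RANGAP1, GNG5 and SPATA1, which are not printed, held no E-box. These are the other starts under the 6 highest-scoring members over a start, with GNG5 and SPATA1 under the same peak. The SCD stretch held none either, and had the letters CCAAT and GGGCGG (the CCAAT box and the core of SP and KLF sites).

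Across promoters, those under a member held CAGCTG and CAGGTG more often than promoters in general. E-boxes as a whole were about as common before base composition was matched. The window was the 300 bases from 250 before to 50 after the most upstream start of each gene, which the promoter table gave for 15812 genes. The table held no gene of chromosome 8, so the word shares, and the shares by strand below, leave that chromosome out. A member lay over 1185 of these starts, a shared peak over 586, a TCF3 peak without a gene-end ATOH8 peak over 1357, and none of these over 12684. Words were searched on both strands. CAGCTG was in 27.3% (24.9 to 29.9) of the windows under members, against 17.5% (17.0 to 18.2) of all windows. It was in 20.6% (17.6 to 24.1) under shared peaks and 14.9% (13.1 to 16.9) under TCF3 peaks without ATOH8. CAGGTG was in 30% (27.4 to 32.6) under members, 24.6% (21.3 to 28.2) under shared peaks, 20.6% (18.6 to 22.9) under TCF3 peaks without ATOH8 and 19.9% (19.3 to 20.5) of all windows. One or both words were in 49.9% (47.0 to 52.7) under members and 33.6% (32.8 to 34.3) of all windows.

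Any E-box, CANNTG, was in 67.4% (64.7 to 70.0) of the member windows and 64.6% (63.9 to 65.4) of all windows. The word CANNTG covers 10 kinds of E-box when both strands are read, and overlaps each of them. Of these, 3 were in a larger share of member windows than of all windows: CAGCTG and CAGGTG, as above, and also CACGTG, at 11.1% against 8.82%. The other 7 kinds were in a smaller share, among them CAGATG at 8.19% (6.76 to 9.88) against 11.7% (11.2 to 12.2).

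Windows under members were also richer in G and C, with a median of 70.0% against 62.7% over all windows, 73.5% under shared peaks and 71.3% under TCF3 peaks without ATOH8. CpG-rich windows, with an observed-to-expected CpG ratio of at least 0.6, made up 94.5% of member windows, 98.5% of shared ones, 84.5% of those under TCF3 peaks without ATOH8 and 65.6% of all. GGGCGG was in 84.6% (82.5 to 86.6) of member windows and 58.3% (57.6 to 59.1) of all. The ETS word CCGGAAG was in 19.5% (17.3 to 21.8) of member windows, 14.1% of all and 8.55% (7.18 to 10.2) under TCF3 peaks without ATOH8. TATAAA, the TATA box, was in 3.88% (2.92 to 5.14) of member windows, 4.10% of shared ones, 9.14% under TCF3 peaks without ATOH8 and 9.75% of all. CCAAT was in 29.5% of member windows and 36.4% of all. A match is a description of the letters, not a binding site.

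**Figure D1:**
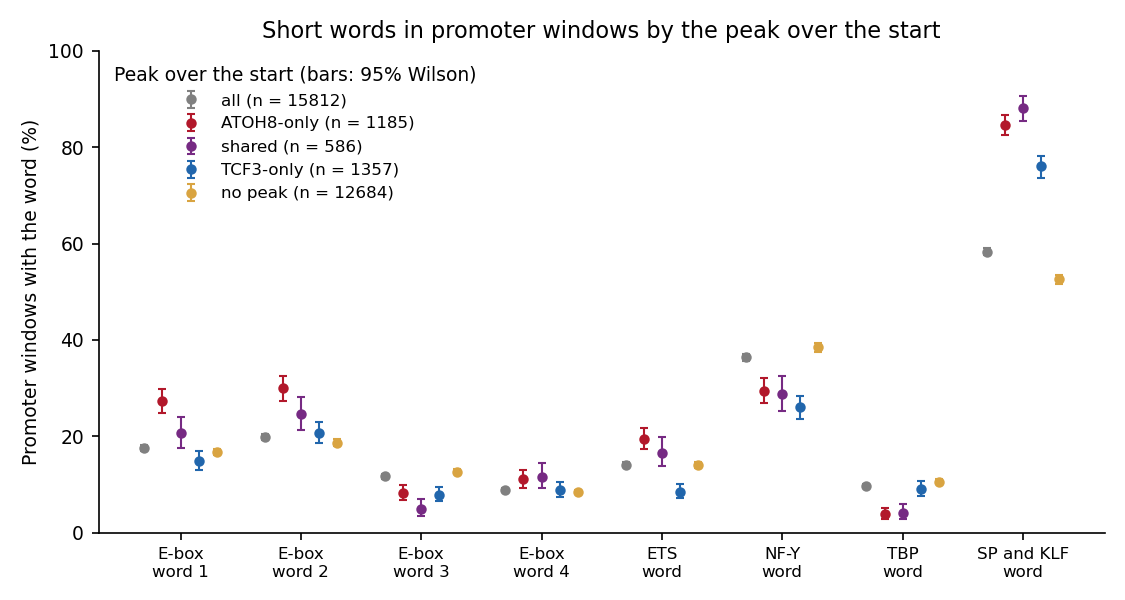
Share of promoter windows (y axis, %) that hold each short word (x axis), by the peak over the start; points are shares and bars Wilson 95% intervals. E-box word 1 is CAGCTG, word 2 is CAGGTG, word 3 is CAGATG and word 4 is CACGTG; the ETS word is CCGGAAG, the NF-Y word is CCAAT, the TBP word is TATAAA and the SP and KLF word is GGGCGG. The red points of members are above the grey points of all promoters for E-box words 1, 2 and 4, the ETS word and the SP and KLF word. They are below the grey points for E-box word 3, the NF-Y word and the TBP word.

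Because base composition moved with the groups, the words were read within bands of equal G and C content. In windows of 65 to 75% GC, CAGCTG was in 26.3% (23.1 to 29.9) of the 634 under members, 26.5% (21.6 to 32.1) of the 268 under shared peaks, 15.7% (12.8 to 19.1) of the 504 under TCF3 peaks without ATOH8 and 15.6% (14.4 to 16.9) of the 3337 without a peak. At 75 to 90% GC, the shares were 25.7% (21.0 to 31.1) under members, 15.3% (11.3 to 20.5) under shared peaks, 10.9% (8.40 to 14.1) under TCF3 peaks without ATOH8 and 13.1% (11.2 to 15.4) without a peak. At 55 to 65% GC they were 31.0% (25.4 to 37.1) of 239 under members, 17.6% (10.6 to 27.8) of 74 under shared peaks and 20% (18.8 to 21.2) without a peak. Members and shared peaks thus had like shares at 65 to 75% GC. Their intervals overlapped at 55 to 65%, with members higher, and did not meet at 75 to 90%. CAGGTG at 65 to 75% GC was in 30% (26.5 to 33.6) under members and 18.0% (16.7 to 19.4) without a peak. Under shared peaks it was in 24.6% (19.9 to 30.1), an interval that overlapped that of members. Under TCF3 peaks without ATOH8 it was in 21.0% (17.7 to 24.8). Any E-box, CAGCTG and CAGGTG included, was in 65.8% (62.0 to 69.4) under members in that band. It was in 65.3% under shared peaks and 56.5% (54.8 to 58.2) without a peak. At 75 to 90% GC these shares were 63.4% (57.6 to 68.8), 52.3% and 45.2% (42.1 to 48.3). At 55 to 65% GC, any E-box was in 74.9% (69.0 to 80.0) under members and 67.6% (66.2 to 69.0) without a peak. It was in 68.9% (57.7 to 78.3) under shared peaks and 72.3% (66.6 to 77.3) under TCF3 peaks without ATOH8. Both of these intervals overlapped that of members. GGGCGG at 65 to 75% GC was in 89.0% (86.3 to 91.2) under members and 84.7% (83.4 to 85.8) without a peak. At 55 to 65% GC it was in 66.1% (59.9 to 71.8) under members and 53.9% (52.4 to 55.4) without a peak. At 75 to 90% GC the shares were 97.2% and 97.5%. CCGGAAG at 65 to 75% GC was in 21.5% (18.4 to 24.8) under members and 18.3% (17.1 to 19.7) without a peak.

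Within the members, CAGCTG and CAGGTG were each most frequent in the group with the highest scores. The authors' score is a value per peak that the labels do not define, and it was used only within the ATOH8 list. The 1185 starts under a member, which lay under 1102 distinct members, were split by the member's score into 4 groups of 296 or 297 starts. CAGCTG was in 24.9% (20.3 to 30.1) of the lowest group (51 to 67), 21.3% and 29.4% of the next ones, and 33.8% (28.6 to 39.3) of the highest (127 to 1530). CAGGTG went from 24.9% (20.3 to 30.1) through 28.7% and 30.4% to 35.8% (30.6 to 41.4). For CAGCTG the intervals of the lowest and highest groups overlapped. GGGCGG was not most frequent in the highest group, with 84.2, 83.1, 88.5 and 82.8% from the lowest group up. Base composition by score group was not examined.

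Members gathered at gene starts. The strand of the nearest gene was known for 2053 members, and the nearest end was the start for 1861 of them (90.6%, 89.3 to 91.8) and the far end, where transcription stops, for 192 (9.35%). Among shared peaks of known strand the start was nearest for 94.8% (93.2 to 96.0). Members at a start had their midpoint a median of 254 bp from it, and those at a far end a median of 1859.5 bp. Only 30.2% of the far-end members lay within 1 kb of the end, against 86.5% of the members at starts. The median score was 86 in both. Of the 2562 genes of known strand with a member, 1891 (73.8%) had one only near the start, 344 (13.4%) only near the far end and 327 (12.8%) near both.

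Around the start, members lay mostly just inside the gene. An annotated start was within 1 kb of the midpoint for 1714 members (67.5%), and 70.1% (67.9 to 72.2) of these midpoints were downstream of it. The median position of all of them, upstream ones counted as negative, was 130 bp into the gene. For shared peaks the same median was 183 bp, with 75.4% (72.4 to 78.1) downstream. Gene-end TCF3 peaks without ATOH8 had a median of 245 bp, with 77.0% (75.1 to 78.7) downstream, and 48.4% of them were within 1 kb of a start. These differences were not tested.

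**Figure D2:**
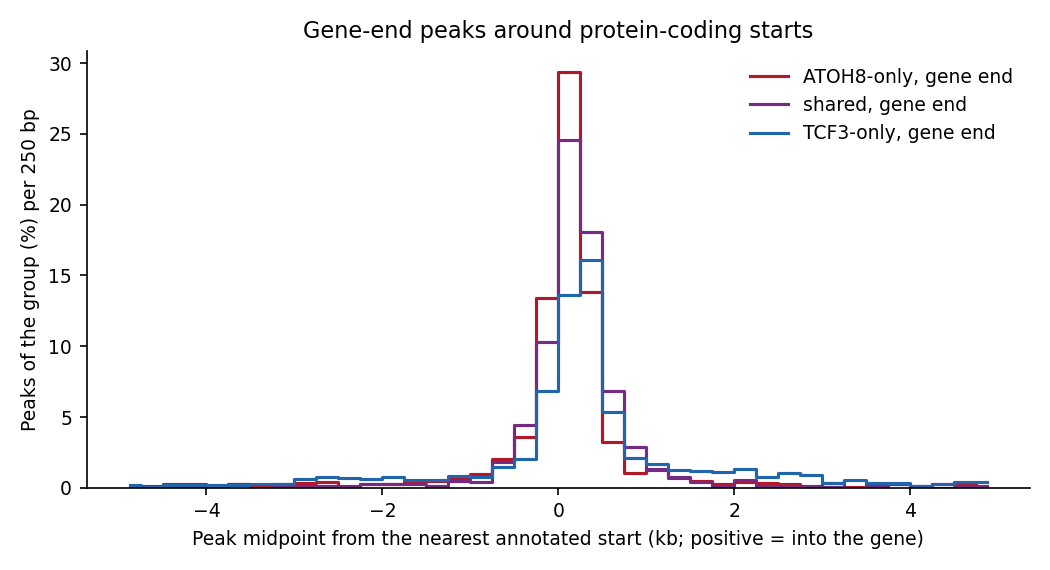
Percentage of each group's peaks per 250 bp (y axis) by the distance of the midpoint from the nearest annotated start in kb (x axis, positive into the gene); lines are ATOH8-only, shared and TCF3-only gene-end peaks. The red line of the members has its highest step just inside the start, where the medians within 1 kb are 130, 183 and 245 bp for the 3 groups.

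Counting all gene ends, the midpoint was within 200 bp of an end for 35.8% (34.0 to 37.7) of members and 29.0% (26.5 to 31.6) of shared peaks. Between 500 bp and 1 kb the shares turned, with 12.3% (11.1 to 13.6) of members and 20.8% (18.7 to 23.2) of shared peaks. At 2 to 5 kb they were 10.5% (9.34 to 11.7) and 5.51% (4.38 to 6.92). Members were narrower, with a median width of 678 bp against 875.5 bp, so the spans were also compared at equal width. At widths of 500 to 1000 bp, 56.0% (53.2 to 58.7) of members and 52.8% (48.8 to 56.8) of shared peaks covered a gene end. Over all widths it was 52.9% and 55.3%. Midpoints were inside a gene for 76.7% of members and 82.7% of shared peaks.

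Some member starts were divergent, with a pair of genes transcribed away from each other. Such a pair of starts was within 1 kb of the midpoint for 6.89% (5.97 to 7.94) of members and 4.95% (3.88 to 6.30) of shared peaks. Among genes of known strand, 17.2% (15.8 to 18.7) of those with a member had a divergent neighbour start within 1 kb, against 12.3% of all such genes, and a peak between such starts counts for both genes. In all, 653 members (25.7%) were within 5 kb of 2 genes and 122 (4.81%) of 3 or more, so a gene with a member is not always the gene whose start the peak covers.

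The share of gene-end ATOH8 peaks that were members changed with width and little with score. It was 79.1% (76.3 to 81.6) below 500 bp, 71.2% at 500 to 750 bp, 63.7% at 750 to 1000 bp, 58.7% at 1000 to 1500 bp and 46.5% (41.1 to 51.9) above that. A wider peak has more bases that a TCF3 peak can share, so width and membership are linked by the rule. With the ATOH8 list cut by score into 5 groups of equal size, from the lowest up, the share was 68.6, 68.4, 67.2, 65.8 and 65.1%, with intervals that overlapped. The median score was 85 for members (quartiles 65 and 118) and 86 for shared peaks (65 and 122). It was 75.5 for ATOH8-only peaks deep in genes and 78 for those between genes. Scores of 200 or more were held by 103 members (4.06%) and 61 shared peaks (4.87%). The ATOH8 list was held in part, with no peak between the scores 996 and 356, 326 and 280, and 232 and 189, so these are shares of the peaks held.

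**Figure D3:**
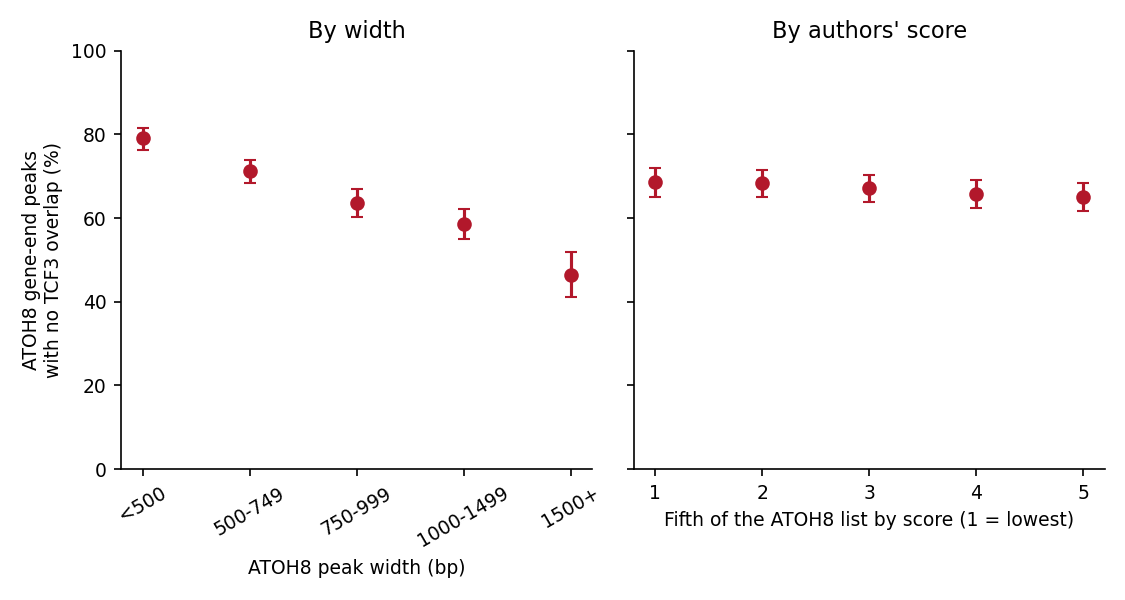
Share of gene-end ATOH8 peaks with no TCF3 overlap (y axis, %) by peak width in bp (left) and by the authors' score in 5 groups of the ATOH8 list (right, 1 lowest); points are shares and bars Wilson 95% intervals. The share runs from 79.1% to 46.5% with width and from 68.6% to 65.1% with score.

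Most members were more than 5 kb from any TCF3 peak, a distance that the overlap rule itself favours. No other group was set beside them here. A TCF3 peak lay within 1 kb of 103 members (4.06%), within 5 kb of 249 (9.81%) and within 100 kb of 1441 (56.8%). At the edge of the overlap rule, the members nearest to a TCF3 peak were at YPEL5, LRFN4 and YWHAG, with gaps of 2, 27 and 33 bp. The shared peaks with the smallest overlap were at PPFIA1, ARC and HCN2, with 5, 32 and 34 shared bp. At the edge of the 5 kb window, the last members in were at UNC13A, KBTBD11 and ATOSB (4961, 4977 and 4984 bp), and the first peaks out were at FOXD3, MGAT1 and SIN3A (5002, 5014 and 5033 bp).

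The highest-scoring member covered the start of DMPK (chromosome 19, 45780511 to 45782529) with a score of 1530. The member at ENTPD8 scored 1273 (chromosome 9, 137441305 to 137442036). The next, with 1202, lay 1368 bp from the far end of MRPL34, a mitochondrial ribosomal protein gene, and near ABHD8 and DDA1. A member of score 1005 was near RASSF7 and the uncharacterised LOC124902805 (chromosome 11, 567788 to 569579), and the member at PARP16 scored 996 (chromosome 15, 65286106 to 65287107). Peaks with scores between 996 and 356 were not analysed here, so nothing is read from the gap below these 5, and ranks hold only among the peaks held.

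Among the members held, the next 15 scored 338 to 356. They included the shared start region of ZC3H7B and RANGAP1 (356), the latter a RAN GTPase activator gene, and that of SPATA1 and GNG5 (355), the latter a G protein gamma subunit gene. RBL1 had 354, and CIRBP, a cold-inducible RNA-binding protein gene, 353 for a member 2471 bp from its start. NAPRT, an enzyme of NAD synthesis, had 346, PRKCD, a protein kinase C isoform, 345, and PARD6A, a cell polarity gene, 343. VPS26C, a retriever subunit, also had 343. GOT1, the cytosolic aspartate aminotransferase, ZCCHC2, RNF228 and the sodium-proton exchanger gene SLC9A7 had 342 each. LOC124904106 and RUNDC1 had 341, and WNT10A, a WNT ligand, 338 near its far end. The nearest end was a start for 16 of the 20 and a far end for 2, with the strand not in the table for 2. RNF228 and CIRBP had a TCF3 peak within 1 kb, 309 and 688 bp away.

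The member near RASSF7 also held the hairpin of MIR210 (chr11:568089-568198, minus strand), the microRNA best known for its induction by low oxygen. It was picked after its value was seen. Its main mature form, from RefSeq (GRCh38.p14), is printed with the seed, bases 2 to 8, in capitals.
hsa-miR-210-3p: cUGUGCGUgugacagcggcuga
A member shared a base with a microRNA gene in 16 cases (0.630%, 0.388 to 1.02), against 15 shared peaks (1.20%, 0.727 to 1.97). They included the hairpins of MIR23A, MIR27A and MIR24-2 under 1 member of score 101, MIR375 under one of score 81 and MIR191 under one of score 60. Long noncoding RNA genes shared a base with 15% (13.7 to 16.5) of members and 22.8% (20.5 to 25.2) of shared peaks.

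The gene of the study's title, SCD, had 1 member (chr10:100347331-100348476), with its midpoint 670 bp into the gene and a score of 65, above 25.9% of ATOH8 peaks. ATOH8 itself had a member over its start (chr2:85753939-85754820) with a score of 80 and a midpoint 388 bp in. TCF3 had one (chr19:1651151-1652246) with a score of 102 and a midpoint 917 bp into the gene. The nearest TCF3 peaks were 231904 bp from the SCD member, 133717 bp from the ATOH8 member and 29739 bp from the TCF3 member.

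A member was within 5 kb of an end of 3173 of 19974 protein-coding genes, which is 15.9% (15.4 to 16.4) and serves as the background for the gene lists below. Shared peaks were at 1539 genes (7.71%). Of the genes with a member, 2911 had 1, 244 had 2 and 18 had 3 or more. A TCF3 peak elsewhere within 5 kb of an end was found for 579 of the 3173 (18.2%, 16.9 to 19.6), against 28.5% of all genes, a share that the rule itself lowers. The genes with the most members were AJM1 and KIFC2, with 4 each. AJM1, an apical junction gene, had scores of 108, 108, 67 and 52, and KIFC2, a kinesin gene, 90, 80, 77 and 53. DMPK, LOC124904106, NFKB2, GEMIN7, LAMA5, CD151, PRDX2 and ARHGAP39 had 3 each. NFKB2, an NF-kappa-B subunit, had scores of 244, 116 and 108, and PRDX2, a peroxiredoxin, 141, 132 and 88. The PRDX2 member of score 141 also counts for JUNB, with its midpoint 600 bp from the JUNB start.

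Of 33 gene lists, 8 had members at 2 or more times the background share, and 7 of these 8 were above the background under each of 7 alternative settings. The lists together held 2089 genes, of which 339 (16.2%) had a member, close to the background. The 2 largest lists, ZNF genes (509) and olfactory receptors (392), were below it and weigh on this share. Taken singly, 25 lists were above the background, most with intervals that included it, and 8 were below. Of the lists, 17 were above it under every alternative. They are described by their counts. No test was made, and genes of a list can share a peak.

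The ID, HES and HEY genes had the highest share, 8 of 17 (47.1%, 26.2 to 69.0), 2.96 times the background, and 2 of 17 had a shared peak (11.8%, 1.53 times its background). These genes encode inhibitors of bHLH factors and the repressors that act below Notch and BMP signals. ID1 had the highest score, 329, for a peak whose midpoint was 2402 bp from its far end. HES1, the main Notch target, had 277 at 1231 bp from its start. HES4 had 145 over its start and HES7 145 near its far end, from a peak that also served ALOXE3. BHLHE40 had 107, HEYL 89, ID2 73 and HES6 65. HES1, HES7 and ID2 also had a TCF3 peak within 5 kb of an end. The bHLH activators and E proteins had 4 of 32 (12.5%, 4.97 to 28.1), near the background, and 1.12 times it with the higher-ranked 50% of ATOH8 peaks. The 4 genes were ASCL2 (171), OLIG3 (103), TCF3 and ATOH8.

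Among the hypoxia genes, 10 of 26 (38.5%, 22.4 to 57.5) had a member, and 5 had a shared peak (19.2%, 2.50 times its background, against 2.42 times for members). The oxygen-sensing core made up much of this. EGLN3 and EGLN1, the prolyl hydroxylases that mark HIF for destruction, scored 164 and 112 near their starts. EPAS1 and ARNT, a HIF alpha subunit and its partner, scored 137 and 127, within 200 bp of their starts. HIF1A had 111 near its far end, and VHL, the ubiquitin ligase component that recognises HIF, had 56. HK2, BNIP3L, P4HA1 and ENO1, target genes in glycolysis, mitophagy and collagen modification, had 97, 97, 63 and 54.

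Fatty acid and sterol synthesis had 13 of 34 genes (38.2%, 23.9 to 55) on 12 peaks, 2.41 times the background, and 2 had a shared peak (5.88%, 0.763 times its background). A gene-end TCF3 peak without ATOH8 was near 11 of the 34 (32.4%, 1.46 times its background). TCF3 peaks lay 488 bp from the LSS member and 523 bp from the member at FADS1 and FADS2. When TCF3 peaks within 1 kb counted as shared, the list had 29.4%, 1.93 times the background under that setting. ME1, the cytosolic malic enzyme, had 159 and SREBF1, the master regulator of lipogenic genes, 122 at 3250 bp from its start. SCAP, the escort of SREBP proteins, had 74 at 1320 bp from its start. In sterol synthesis, LSS had 116, MVK 113, SQLE 72, CYP51A1 70 and IDI1 68, each within 300 bp of a gene end. FADS1 and FADS2, desaturases of polyunsaturated fatty acids, shared 1 peak of score 97. ACSS2 had 63 and SCD 65. This list was chosen with earlier results of these data known.

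Ferroptosis suppressors had 9 of 25 (36.0%, 20.2 to 55.5) and promoters 8 of 25 (32.0%, 17.2 to 51.6), above the member background of 15.9%. Shared peaks were near 5 (20%) and 7 (28%) of these genes, 2.60 and 3.63 times their own background of 7.71%, so the shared peaks stood at least as far above background there as the members, at 2.27 and 2.01 times. Among suppressors, GCH1, the first enzyme of tetrahydrobiopterin synthesis, had 140. GPX4, the lipid hydroperoxide reductase, had 136, at its far end and with a TCF3 peak also near the gene. AIFM2 (FSP1) had 127, DHODH 91, the glutamate-cysteine ligase genes GCLM and GCLC 83 and 66, FTH1, the ferritin heavy chain gene, 77, SCD 65 and TXNRD1 55. Among promoters, the voltage-dependent anion channel genes VDAC2 and VDAC3 had 151 and 118, ALOXE3, a lipoxygenase gene, 145 and PEX3, a peroxisome gene, 126. KEAP1, the NRF2 inhibitor, had 99. The intervals of the suppressors and promoters overlapped throughout, and SCD and FADS1 stand in the lipid list as well.

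Immediate early genes had 9 of 24 (37.5%, 21.2 to 57.3), 2.36 times the background, and 7 with a shared peak (29.2%, 3.79 times its background). FOSL1 (148) and JUNB (141), subunits of AP-1, led them, followed by KLF10 (135) and ZFP36 (124). NR4A1 had 101 at 579 bp from its start and JUND 70. Cell cycle regulators had 10 of 27 (37.0%, 21.5 to 55.8). RBL1 had 354, CCND3 129, CDK2 110, CDKN1C 105 and CCND1 93. CDC25A, E2F3, CCNB1, CDC25C and CDKN2C had 59 to 74. Heat shock proteins and co-chaperones had 23 of 84 (27.4%, 19.0 to 37.7), with CCT7 at 134, DNAJC30 at 130 and HSPA1A and HSPA1L at 125 from 1 peak. Proteasome genes had 13 of 50 (26.0%, 15.9 to 39.6), led by PSMD5 (159), PSME4 (150) and PSMA5 (142). The lower limit of that interval is at the background, and with a 1 kb window the share was 1.19 times it.

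For the lists named in the next sentences, the interval included the background. Iron handling had 6 of 24 (25%), with ACO1, the iron-responsive aconitase, at 145. Epithelial-mesenchymal transition genes had 6 of 25 (24.0%), led by the epithelial genes CDH1 (143), ESRP2 (121) and OCLN (116). The mesenchymal gene VIM also had a member (83). Shared peaks were at 5 genes of this list, 2.60 times their own background, against 1.51 times for members. Aminoacyl-tRNA synthetases had 9 of 39 (23.1%), DNA damage repair and replication licensing 7 of 32 each (21.9%), and the spliceosome core 11 of 53 (20.8%). MSH6, a mismatch repair gene, had 110, and RFC1, a clamp loader subunit, 183. Mediator and integrator had 9 of 45 and BMP and SMAD signalling 5 of 25 (20% each). The latter were the receptor genes TGFBR2 (96) and BMPR2 (54), the signal transducers SMAD3 (90) and SMAD2 (73) and the inhibitor SMAD7 (59). Cytosolic ribosomal proteins had 16 of 83 (19.3%), the respiratory chain 16 of 84 (19.0%) and mitochondrial ribosomal proteins 14 of 77 (18.2%). Prostate markers had 3 of 17 (17.6%), namely ITGA6 (125), FKBP5 (94) and STEAP4 (65). Targets of E proteins in lymphocytes had 3 of 18 and ATF4 and unfolded protein response genes 4 of 24 (16.7% each). Autophagy had 4 of 31 (12.9%) and nucleoporins 2 of 25 (8%). Several of these lists crossed the background under an alternative. Iron handling and the ATF4 list were at 0.5 times it with the higher-ranked 50% of ATOH8 peaks, and autophagy at 1.16 times. BMP and SMAD genes were at 0.789 times it when TCF3 peaks within 1 kb counted as shared. With a reciprocal overlap of 50%, prostate markers were at 0.946 and mitochondrial ribosomal proteins at 0.975 times it. Lymphocyte targets had no member with a 1 kb window.

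Replication-dependent histones had 25 of 69 genes (36.2%) but only 11 distinct peaks, since these short genes stand side by side and 1 peak serves several. H2AC20, H2AC21 and H2BC21 took 1 peak of score 109, and H2BC18 and H3C13 one of score 92. None had a shared peak. With the higher-ranked 50% of ATOH8 peaks alone, their share was 0.869 times the background. Housekeeping genes had 6 of 23 (26.1%, 12.5 to 46.5), and 0.738 times the background with a 1 kb window.

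The gene families of keratins, olfactory receptors and clustered protocadherins were nearly without members. Keratins had 0 of 55, which allows a share of up to 5.45% by 3 counts of 55 and 6.53% by the Wilson interval. Olfactory receptors had 2 of 392 (0.510%, 0.140 to 1.84) and clustered protocadherins 1 of 53 (1.89%, 0.334 to 9.94). A TCF3-only gene-end peak was near 22.1% (21.5 to 22.7) of all genes. It was near 16 keratin genes (29.1%), 66 olfactory receptor genes (16.8%) and 47 protocadherin genes (88.7%), so of these families only the protocadherins were far above that share. The only members in these families were PCDHAC1 (133), OR2I1 (96) and OR52A1 (65). HOX cluster genes had 6 of 39 (15.4%) and zinc finger genes of the ZNF series 75 of 509 (14.7%, 11.9 to 18.1). Both were close to the background, and at 1.23 times it (HOX, higher-ranked 50% of ATOH8 peaks) and 1.02 times it (ZNF, 1 kb window) under an alternative. NDUFB7, a complex I gene, had the highest score in the respiratory chain list (267), and ZNF678 in the ZNF list (276).

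**Figure D4:**
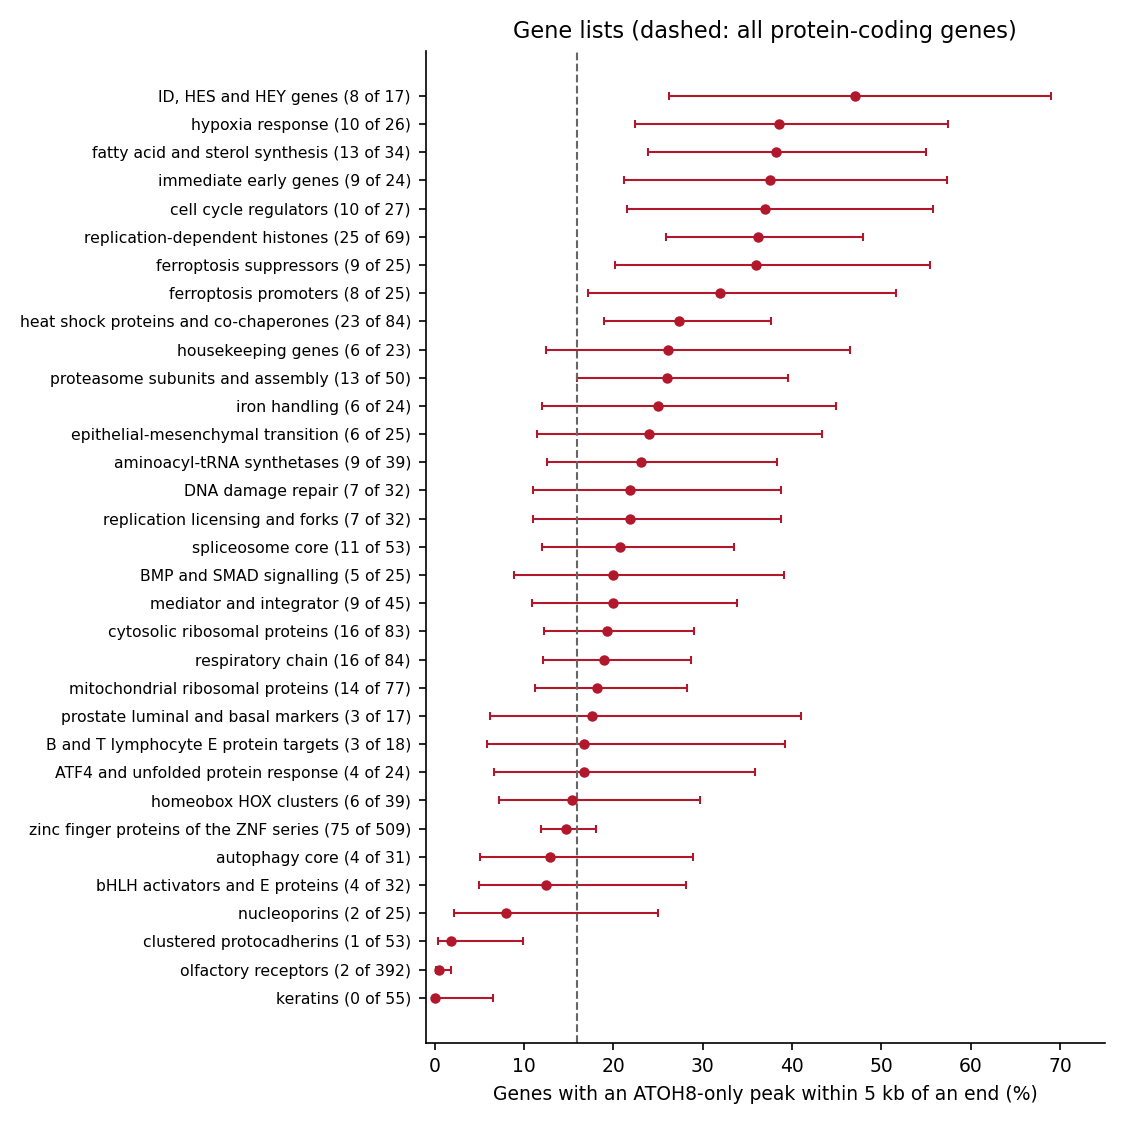
Percentage of genes with an ATOH8-only peak within 5 kb of an end (x axis) for 33 gene lists (rows, counts in brackets); points are shares, bars Wilson 95% intervals and the dashed line all protein-coding genes, 15.9%. The lists run from 47.1% for ID, HES and HEY genes to 0 for keratins, and most intervals include the dashed line.

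Members were spread over all 23 chromosomes, with chromosomes 16 and X apart from the rest. On chromosome 16, 25.1% (22.3 to 28.1) of genes had a member, and on chromosome X 3.30% (2.29 to 4.73), 28 of 848. The other 21 lay between 12.6% (chromosome 4) and 19.2% (chromosome 17). The share of gene-end ATOH8 peaks that were members ran from 50% on chromosome 18 (38.3 to 61.7) and 53.6% on chromosome 9 to 76.7% on chromosome 16, 80.7% (75.2 to 85.1) on chromosome 19 and 90.9% (72.2 to 97.5) on chromosome X. Chromosome X had only 20 members, 2 shared gene-end peaks and 50 TCF3 peaks. The number of chromosome copies in the cells and the depth along chromosomes were not known here.

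**Figure D5:**
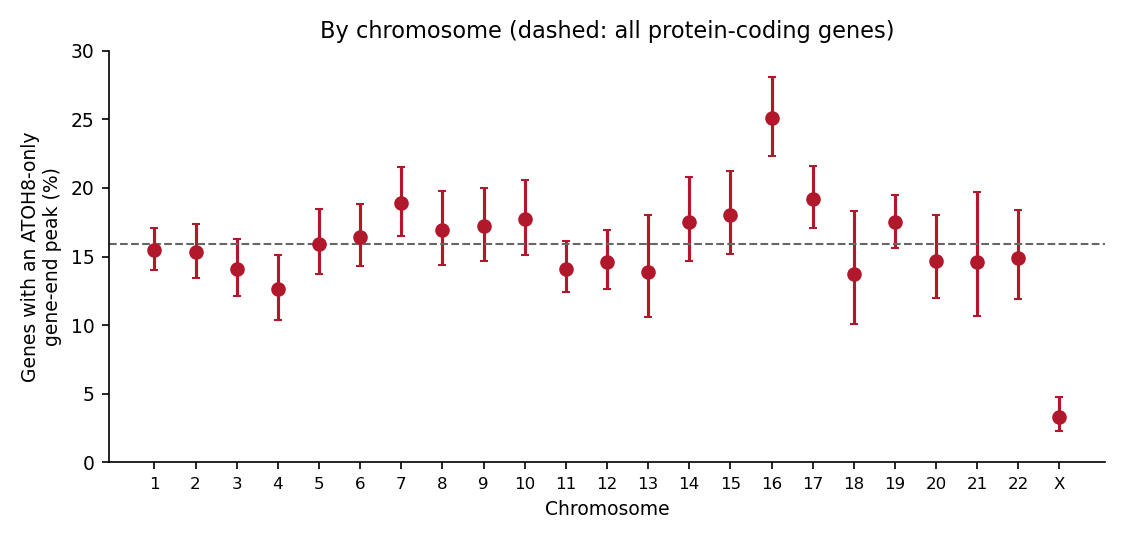
Percentage of protein-coding genes with an ATOH8-only gene-end peak (y axis) on each chromosome (x axis); points are shares, bars Wilson 95% intervals and the dashed line all protein-coding genes, 15.9%. Chromosome 16 is at 25.1% and chromosome X at 3.30%.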

How the data were processed

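Chromatin from DU145 cells was fixed with 1% formaldehyde and sonicated, per the labels' protocols. The authors deposited 1 peak list for each immunoprecipitation, with a position and a score per peak. Coordinates are hg38, per the submitters' processing notes. The aligner, peak caller, threshold, score definition, use of the input, coordinate base and read depth were not given in the sources used here. Inputs were not analysed here. The lists were held in part (3 ATOH8 and 5 TCF3 lines had no peak), so the absence of a peak at a gene is not read as absence of binding.

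Genes, starts, strands and promoters came from RefSeq GRCh38.p14: 19974 protein-coding genes, of which 15812 were in the promoter table. Shares have Wilson 95% intervals. Computations, tested on simulated data, used Python 3.11.15, numpy 2.4.6, pandas 2.3.3, scipy 1.17.1 and matplotlib 3.10.9. Members, lists and words were chosen with earlier results of these data known. Named genes are the 20 highest members, SCD, ATOH8 and TCF3, the 3 highest genes per list, the 10 genes with most members and the peaks at the limits of the rule; other list genes were named after their values were seen. Some of these are not reported here. Alternatives varied the overlap, the window, the gene set, the peaks kept and the promoter bases.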

Additional observations from a re-analysis of the deposited data

How the results depend on the processing

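The number of members ranged from 1281 to 3028 over 9 alternatives, and was 1281 with the higher-ranked 50% of ATOH8 peaks. With those peaks, by construction fewer, the share of genes with a member was 8.34%, the share of members over a gene end 57.9%, the median score 117, the list genes 188, the share of windows with any E-box 70.6% and with CAGCTG 30.6%. The share of genes with a member was 18.6% with a reciprocal overlap of 50%, 15.2% when TCF3 peaks within 1 kb counted as shared, 18.2% with the higher-ranked 50% of TCF3 peaks, and 11.8% and 19.0% with windows of 1 and 10 kb. It was 7.90% over all annotated genes, a larger denominator. The share over a gene end was 65.5% and 48.5% with windows of 1 and 10 kb. In the 250 bases before the start alone, a shorter window, any E-box was in 58.1%, CAGCTG in 19.2% (13.2% of all promoters) and CAGGTG in 25.1% (17.1%). Added after seeing the data, widths of 500 to 1000 bp gave 56.0% over a gene end, and leaving out 1 Mb bins with 10 or more members gave 14.5% of genes. Other causes were not tested. No paired analysis was possible because each group had 1 library and no result came from a test. Without replicates or depth, no value has an error beyond counting.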

Other observations

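Members crowded in some gene-rich stretches, described here by bins of 1 Mb. The 3 fullest bins held 17 members (chromosome 8, from 144000000), 15 (chromosome 19, from 1000000) and 13 (chromosome 17, from 75000000), with 47, 39 and 36 protein-coding genes. The bin on chromosome 19 held TCF3, CIRBP, NDUFS7, KLF16 and RPS15, and had 9 shared gene-end peaks and 33 TCF3 peaks. Another bin of that chromosome, from 10000000, held 10 members, no shared gene-end peak and 2 TCF3 peaks, with members at KEAP1, ICAM1, TYK2, DNM2 and S1PR2.

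Some starts under members held several copies of CAGCTG or CAGGTG in their 300 base window. EPOR, the erythropoietin receptor gene, had 3 and 1 under a member of score 129, and RNF144B, a ubiquitin ligase gene, had 3 and 1 under a member of score 56. The divergent pair COG5 and DUS4L had 4 copies in each window under a single member of score 121. Their windows overlap, so some copies can be counted in both. These promoters were picked after their values were seen.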
